A study of Mus musculus with 30 samples.

Results

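The respiratory chain is the set of protein complexes in the inner mitochondrial membrane that pass electrons from nutrients to oxygen and use the energy to make ATP. The genes described here are the mouse protein-coding genes whose GENCODE M21 symbols begin with Nduf, Uqcr, Atp5, mt- or Cox4 to Cox8, together with Sdha, Sdhb, Sdhc and Sdhd. The rule used names only and found 107 genes among 21976 protein-coding genes, of which 91 were autosomal, 3 were X-linked and 13 were encoded in the mitochondrial genome. A level filter (a mean over 5 TPM in the reference line, where TPM is the transcript level per length, scaled to the same total in every library) kept 100 of the 107 among 11703 genes of all kinds, and tests were run on those 100.

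Complexes I, III and IV pump protons across the inner membrane, complex II feeds electrons into the chain without pumping, and ATP synthase lets the protons back through to make ATP. All of the complexes except complex II hold subunits made in the mitochondrion from its own DNA beside subunits imported from the cytosol, so their assembly draws on both genomes. Mitochondrial DNA comes from the mother, and an X-linked subunit gene is present in 1 or 2 copies according to the X chromosomes of the cell.

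Poly(A) RNA of undifferentiated mouse embryonic stem cells in serum and LIF was sequenced in 30 libraries, after pre-plating to remove the feeder fibroblasts. The cells were female hybrids with an X chromosome of Cast/Ei origin (Cast) and an X of 129/Sv origin (Mus), so that reads over sequence differences show the parental allele. The wild type line XX WT and the parental line XX Rnf12+/-, which lacks a working Mus copy of Rnf12 (Rlim in the annotation), had 2 libraries each. From Rnf12+/- cells, 13 lines were derived that carry a deletion on the Mus X named by letters (A, B, AB, C, C-G, D, E, F, H, I, I-TEL, J, K), and a neomycin cassette stays at the deletion. Del J and Del I-TEL came from a second Rnf12+/- line. Lines A, B, AB and C-G were 1 clone with 1 library, and the other 9 were 2 clones with 1 library each. The 2 XO lines, XCastOMus and XMusOCast, keep a single X, of Cast or of Mus origin, and had 2 libraries each. They also differed in Rnf12, with Rlim at 71.2 and 77.8 TPM in XCastOMus and 3.53 TPM in both libraries of XMusOCast, against 77.6 and 79.7 TPM in XX Rnf12+/-. The libraries came in 3 batches by their labels, namely XX WT, XX Rnf12+/- and Del E (6 libraries, paired reads), the other 12 deletion lines (20 libraries) and the XO lines (4 libraries, single reads). XX Rnf12+/- is the reference throughout.

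Total counts per library were 20374510 to 21180709 in the first batch, 8815980 to 10679746 in the batch of 20 and 14997997 to 16494587 in the XO batch. As labelled, Rlim had 1407 Mus and 1511 Cast reads in XX WT and 63 Mus and 997 Cast reads in XX Rnf12+/-. The 5 stem cell markers (Pou5f1, Sox2, Nanog, Esrrb, Zfp42) summed to 3880 to 5360 TPM in each library, and 8 fibroblast markers summed to 91.8 to 347 TPM. In 6 libraries of the batch of 20 a whole autosome stood above the other libraries. These were chromosome 8 in Del F replicate 2 and in both libraries of Del I-TEL and Del J, and chromosomes 1 and 14 in Del I replicate 1. In XCastOMus, 7.4% and 7.0% of the allelic X reads were Mus although the line is labelled as Cast only.

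Short sequences for 2 transcription factors of respiratory chain genes, NRF1 and the ETS factor GABPA, and for YY1 were searched on both strands of the RefSeq promoters, each reaching from 250 bases before to 50 bases after a gene start (GRCm38.p6). Promoters were found for 74 of the 107 genes (79 promoters in all). The NRF1 motif (GCGCA and GCGC with any 1 base between them) was in 25.3% of these and in 4.60% of all 32851 promoters, CCGGAAG (ETS) was in 22.8% and 8.86%, and ATGGCGGC (YY1) was in 10.1% and 2.24%. A match is a description and not a site of binding. Shown here are the NRF1 letters, in capitals, in 30 bases that lie wholly before the gene start of Ndufaf4, Atp5g2 and Atp5k, 3 genes that come back in the results.

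Ndufaf4, chr4:24897960-24897989, plus strand: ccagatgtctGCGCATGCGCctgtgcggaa
Atp5g2, chr15:102671070-102671099, minus strand: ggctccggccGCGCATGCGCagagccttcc
Atp5k, chr5:108434430-108434459, minus strand: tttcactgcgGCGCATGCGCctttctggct

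The 10 bases in capitals are the same in all 3 and read alike on both strands. None of the 3 motifs was in the promoters of the X-linked Ndufb11, Ndufa1 and Cox7b or in that of Atp5j2.

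Most respiratory chain transcripts were abundant in these cells, with a wide range within each complex. In XX Rnf12+/-, the median level of the genes past the filter was 1910 TPM for the mt- genes, 325 TPM for complex III, 300 TPM for complex IV, 203 TPM for complex II, 189 TPM for ATP synthase and 144 TPM for complex I, against 30.5 TPM for all protein-coding genes past the filter. The 8 Ndufaf genes, which help to put complex I together and are no part of it, had a median of 36.8 TPM (20.1 for Ndufaf2 to 49.9 for Ndufaf8). TPM is computed here per length of all annotated exons of a gene. Differences between genes therefore also depend on the annotation, and on the sequence that a gene shares with others. Several mt- genes share most of their sequence with other genes and enter the mt- median (9.78 TPM for mt-Co3 to 6980 TPM for mt-Cytb). Nuclear genes with shared sequence enter the other medians, for instance Ndufaf2, with 64.07% of its 50-base windows shared, and Atp5g2, with 38.35%. ATP synthase spanned from Atp5s at 15.9 TPM to Atp5b, the catalytic beta subunit, at 1950 TPM. Complex I ran from Ndufb2 at 7.09 TPM to the X-linked Ndufa1 at 634 TPM, and complex IV from Cox4i2 at 6.11 TPM to Cox8a at 1210 TPM. Complex II, the only complex with all its subunits from the nucleus, lay between Sdhc, a membrane anchor, at 111 TPM and Sdhd, the other anchor, at 409 TPM.

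The subunit isoforms known from other tissues stayed low, with some exceptions. The muscle isoforms Cox6a2 and Cox8b reached at most 3.05 and 2.70 TPM in any of the 30 libraries, and the testis isoforms Cox7b2 and Cox8c at most 8.71 and 8.58 TPM. These 4 were below the filter, as were mt-Nd4l, mt-Atp8 and an Atp5o entry (ENSMUSG00000116933) that had no count in any library. The muscle isoform Cox7a1 and the testis isoform Cox6b2 were present, at 19.1 to 121 TPM and 34.2 to 188 TPM. Cox4i2, the hypoxia-linked form of subunit 4, lay at 2.77 to 21.4 TPM, beside 657.8 to 1568.7 TPM for the general form Cox4i1. Ndufa4l2, a hypoxia-induced relative of the complex IV subunit Ndufa4, lay at 20.0 to 123 TPM in the first batch, 47.2 to 81.2 TPM in the XO batch and 111 to 327 TPM in the batch of 20.

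The 3 X-linked genes, Ndufb11 and Ndufa1 of the membrane arm of complex I and Cox7b of complex IV, are each removed from the Mus X in a few deletion lines. This allowed a comparison of cells with 1 and 2 copies within a batch. Transcript levels followed the copy number. Ndufb11 lay at 267.0 TPM in Del B and 240.3 TPM in Del AB, which have 1 copy, and at 435.2 to 522.6 TPM (median 478.4) in the 18 libraries of the same batch with 2 copies. Ndufa1 lay at 322.3 and 345.6 TPM in Del C and 289.5 TPM in Del C-G, against 580.4 to 784.2 TPM (median 655.2) in the 17 libraries with 2 copies. Cox7b lay at 520.8 and 514.0 TPM in Del H, against 861.6 to 1169.3 TPM (median 1038.6) in the 18 libraries with 2 copies. For each gene the libraries with 1 copy were below every library with 2 copies.

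**Figure D1:**
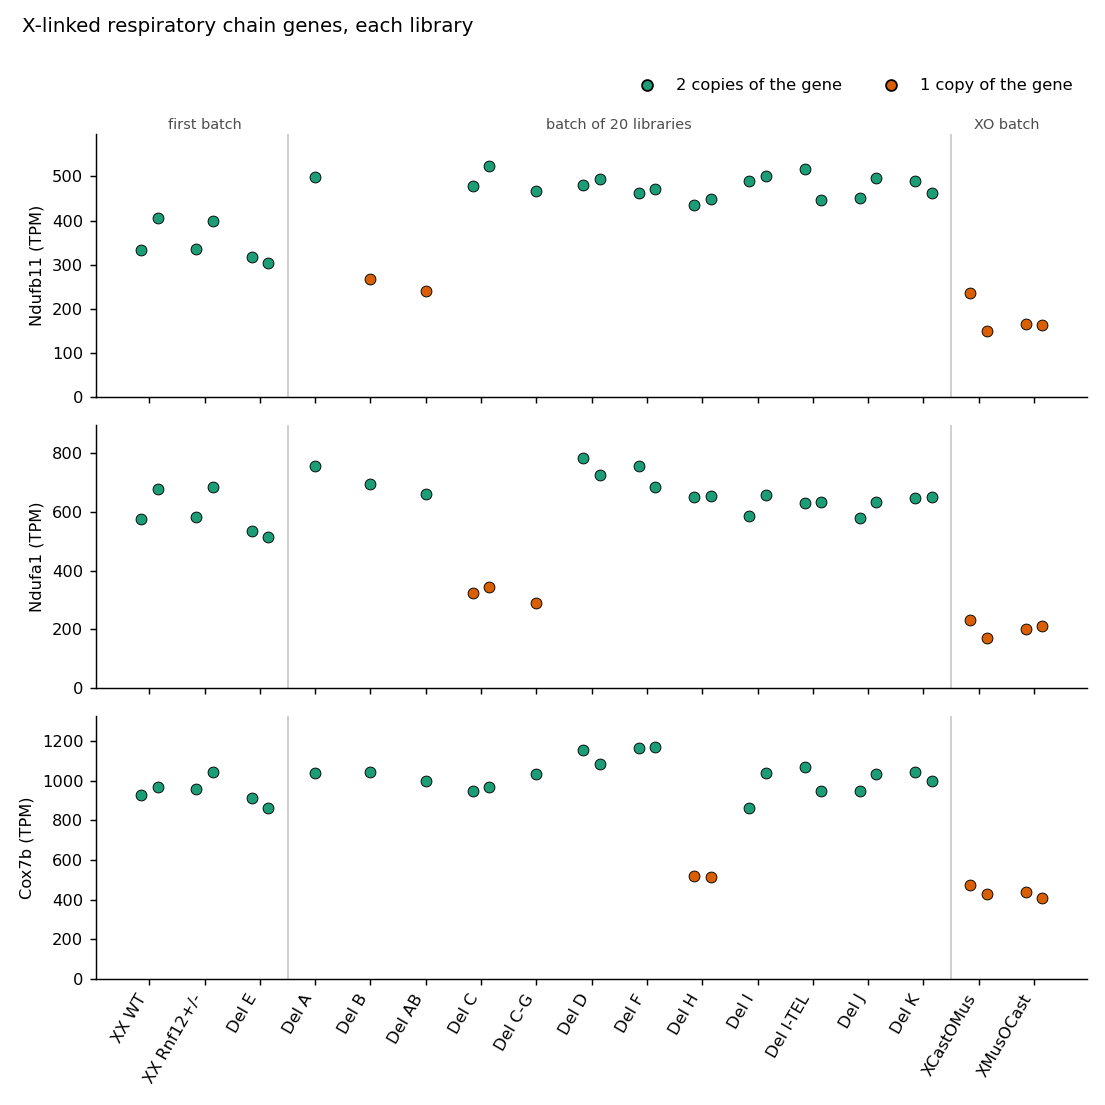
Level (TPM, axis from 0) of Ndufb11, Ndufa1 and Cox7b in each of the 30 libraries by line, with orange points for cells with 1 copy of the gene and green points for 2 copies, and grey lines between batches. In the batch of 20 the orange points sit below all green points, at 240.3 to 267.0 TPM for Ndufb11, 289.5 to 345.6 TPM for Ndufa1 and 514.0 to 520.8 TPM for Cox7b.

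Per cell, the level with 1 copy was 0.529 (95% interval 0.448 to 0.624) of that with 2 copies for Ndufb11, 0.460 (0.406 to 0.521) for Ndufa1 and 0.497 (0.451 to 0.547) for Cox7b. All 3 passed the test (edgeR quasi-likelihood test with Benjamini-Hochberg adjustment over all genes tested, adjusted p = 0.000251, 3.14e-07 and 5.39e-07). Per copy, none of the 3 differed past the threshold. The log2 difference per copy was 0.08 for Ndufb11 (-0.14 to 0.30, adjusted p = 0.742), -0.12 for Ndufa1 (-0.29 to 0.05, adjusted p = 0.352) and -0.01 for Cox7b (-0.14 to 0.12, adjusted p = 0.948). The share of all genes called in the same comparisons was 6.2%, 17.5% and 4.9%. Other genes of the X that go from 2 copies to 1 in the same lines had median differences per copy of 0.03 (17 genes, 3 higher and 0 lower), -0.02 (46 genes, 6 higher and 9 lower) and 0.02 (23 genes, 4 higher and 2 lower). The intervals leave room for a rise of up to 1.23-fold per copy for Ndufb11, 1.04-fold for Ndufa1 and 1.09-fold for Cox7b. Del B, Del AB and Del C-G were single clones, whose spread was taken to be like that of the other lines.

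Allelic reads gave a reading of the remaining copy for Ndufb11 alone. In the 18 libraries with 2 copies it had 1173 Mus and 3472 Cast reads (25.3% Mus), and in Del B and Del AB together 2 Mus and 407 Cast reads. Only 19.6% of its reads were assigned to an allele with 2 copies, and 28.2% with 1 copy. The Mus share of assigned reads thus need not be the Mus share of the transcript. The Cast copy gave a CPM (Cast reads scaled to the library's depth) of 337 in the 2 libraries with 1 copy and 332 ± 27.8 (SD, n = 18, range 282 to 373) in those with 2 copies. The log2 difference was 0.02 (-0.18 to 0.22, edgeR adjusted p = 0.962, with 1.11% of genes called), and a two-sided exact permutation test gave p = 0.874 (the smallest p the design allows is 0.0105). Ndufa1 had 0 allelic reads in the XX libraries and Cox7b too few for a test.

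In the XO lines, where the reads and the batch also differ from the reference, Ndufb11 lay at 236.1 and 149.3 TPM in XCastOMus and 164.5 and 163.8 TPM in XMusOCast, against 336.5 and 398.8 TPM in XX Rnf12+/-. Cox7b lay at 475.9 and 430.6 TPM and at 437.3 and 409.9 TPM, against 959.4 and 1042.7 TPM. Per copy, neither differed past the threshold in either line (log2 0.18 and -0.01 for Ndufb11, -0.04 and -0.09 for Cox7b). Ndufa1 was the exception. It lay at 230.1 and 170.0 TPM in XCastOMus and 201.0 and 210.6 TPM in XMusOCast, against 583.0 and 684.5 TPM. Its level per copy was lower by log2 values of -0.56 (adjusted p = 0.00174) and -0.47 (adjusted p = 0.00381) with edgeR. The XO state cannot be told apart from the single reads and the batch of these 4 libraries. In XCastOMus replicate 1, 37 of 408 allelic reads of Ndufb11 were Mus (9.07%), and in replicate 2, 4 of 250 (1.6%).

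The genes of the mitochondrial genome differed between the first batch and the batch of 20, which hold different lines. Their summed level was 25671 and 27266 TPM in XX WT, 26722 and 29664 TPM in XX Rnf12+/- and 24510 and 32249 TPM in Del E. In the 20 libraries of the other 12 deletion lines it ran from 12327 TPM (Del J replicate 1) over a median of 16602 TPM to 22572 TPM (Del I-TEL replicate 2), below every library of the first batch. The median was 0.589 of the XX Rnf12+/- mean, and 0.581 and 0.610 when the mt- genes were left out of the TPM total or counts were scaled to the autosomal total. Clones of the same line also lay apart within that batch, at 12479 and 22572 TPM in Del I-TEL and 12327 and 17992 TPM in Del J. The nuclear genes of the chain had a median summed level of 1.06 of the reference (23635 to 28121 TPM), which overlapped the reference libraries (23183 and 24775 TPM). For the mt- genes, XCastOMus lay at 20277 and 26117 TPM and XMusOCast at 19527 and 22351 TPM. The median of these 4 libraries had a ratio of 0.756 to the reference, and the libraries overlapped the ranges of both other batches. For the nuclear genes the 4 XO libraries lay below (17924 to 20017 TPM, ratio 0.791).

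**Figure D2:**
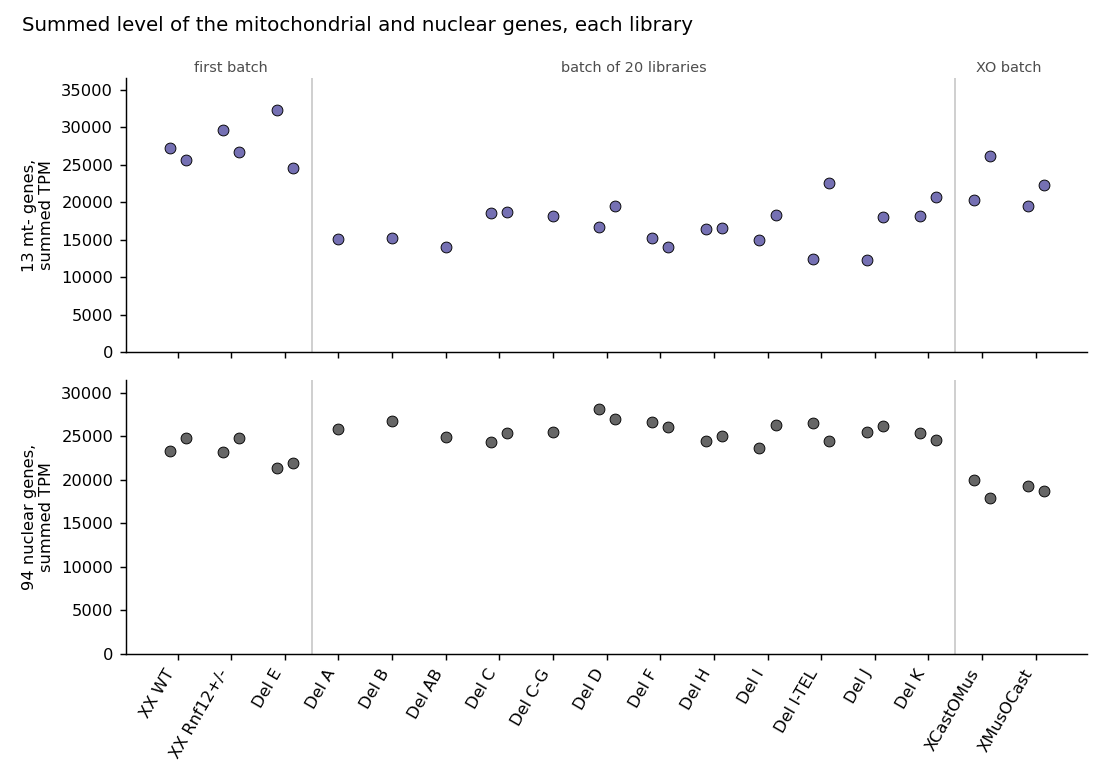
Summed level (TPM, axes from 0) of the 13 mt- genes and of the 94 nuclear genes in each of the 30 libraries by line, with grey lines between batches. The mt- sum is 12327 to 22572 TPM in all libraries of the batch of 20 and 24510 to 32249 TPM in the first batch, while the nuclear sum is 23635 to 28121 TPM and 21426 to 24841 TPM.

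Against XX Rnf12+/-, between 2 (Del C-G) and 10 (Del F) of the 11 mt- genes tested were called lower in each of the 12 lines and none was called higher. Of all genes, 31.6% were called in Del A, 25.2% in Del B, 16.8% in Del AB, 39.0% in Del C, 14.1% in Del C-G, 32.9% in Del D, 18.0% in Del F, 15.6% in Del H, 13.5% in Del I, 23.3% in Del I-TEL, 18.5% in Del J and 13.7% in Del K. The median log2 difference was between -0.71 and -1.24. mt-Nd1, a core subunit of complex I, and mt-Atp6, the channel subunit of ATP synthase, were lower in all 12 lines. mt-Nd1 lay at 5438.5 to 7331.2 TPM in the first batch and 2309.4 to 4586.1 TPM in the batch of 20, without overlap. mt-Cytb, the only mitochondrial subunit of complex III, lay at 5288.3 to 8030.5 TPM and 2609.5 to 6162.2 TPM and was called lower in 6 lines. mt-Nd6, the only protein gene on the other strand of the mitochondrial genome, ranged from 95.6 to 390 TPM in the batch of 20 and 154.6 to 266.6 TPM in the first batch, so its ranges overlapped. The line and the batch cannot be told apart in these contrasts. Del E, sequenced with the reference, had 0 of 11 mt- genes called (median log2 -0.06).

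Nearly all mitochondrial reads came from the Mus genome. Of all allelic reads over the mt- genes, 837 were Cast and 1793427 were Mus, a Cast share of 0.0466% (exact 95% interval 0.0435 to 0.0499, covering counting error only), and the share in single libraries was 0.0183% to 0.0899%. Autosomal reads were 46.0% to 50.2% Cast in the same libraries.

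Several mt- genes could not be measured well. The transcripts of mt-Co2, mt-Co3, mt-Atp6, mt-Nd3 and mt-Nd4l share 97.99% to 100% of their 50-base windows with transcripts of another gene, in the main with pseudogenes on chromosome 1 such as Gm28661, Gm10925 and Gm28437. Their levels were far below those of their neighbours, for instance 22.1 and 13.9 TPM for mt-Atp6 in XX Rnf12+/-. mt-Nd4 shares 62.23% of its windows and mt-Co1 51.14%. The pseudogenes themselves were counted, Gm28661 for instance at 28.2 to 591 TPM, and how reads common to both were divided was not tested. mt-Cytb and mt-Nd6 share none, and mt-Nd2 and mt-Nd5 share 8.19% and 7.61%.

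XX Rnf12+/- and XX WT were compared to see whether the parental line differs from wild type cells. No gene of the chain was called among 100 tested (edgeR, 0.00854% of all genes called). An unadjusted p under 0.05 was reached by 4, DESeq2 called 0, and the median log2 difference was 0.03.

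No respiratory chain gene was called in Del E, the deletion line of the first batch (0.273% of all genes called), while the summed level of its nuclear genes lay below the reference. These genes summed to 21426 and 21906 TPM in Del E against 23183 and 24775 TPM in XX Rnf12+/-, a ratio of 0.904. Complex IV stood at 0.878 and complex I at 0.874 of the reference, and ATP synthase at 0.944. Of the 100 genes, 35 had an unadjusted p under 0.05, and 9 had a log2 difference above 0. No share of all genes stands beside these counts, so they do not set the chain apart from genes at large. The same holds for the counts at an unadjusted p in the other contrasts. The mt- sums, given above, overlapped. The median over the genes was -0.20. Ndufa5, an accessory subunit of complex I, came nearest with 101.6 and 100.4 TPM against 121.4 and 143.2 TPM (log2 -0.42, edgeR adjusted p = 0.0618). DESeq2 called 1 gene lower, and 3 were called lower without XX Rnf12+/- replicate 1.

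Both XO lines differed from XX Rnf12+/- in about as many respiratory chain genes as in genes at large. In XCastOMus 15 genes were higher and 30 lower of 100 tested, where 41.1% of all genes were called. In XMusOCast 19 were higher and 33 lower, where 53.6% of all genes were called. These shares of all genes join both directions, so the excess of lower over higher genes is not set against that of genes at large. The 2 comparisons share the reference libraries. With only the 2 groups in the fit, XCastOMus had 4 higher and 10 lower (12.5% of all genes called). Among the 74 genes with under 10% of their windows shared with other genes, 4 were higher and 28 lower in XCastOMus, and 7 were higher and 27 lower in XMusOCast. Among the 26 with at least 10%, 11 were higher and 2 lower, and 12 were higher and 6 lower. The same split over all genes was not made.

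**Figure D3:**
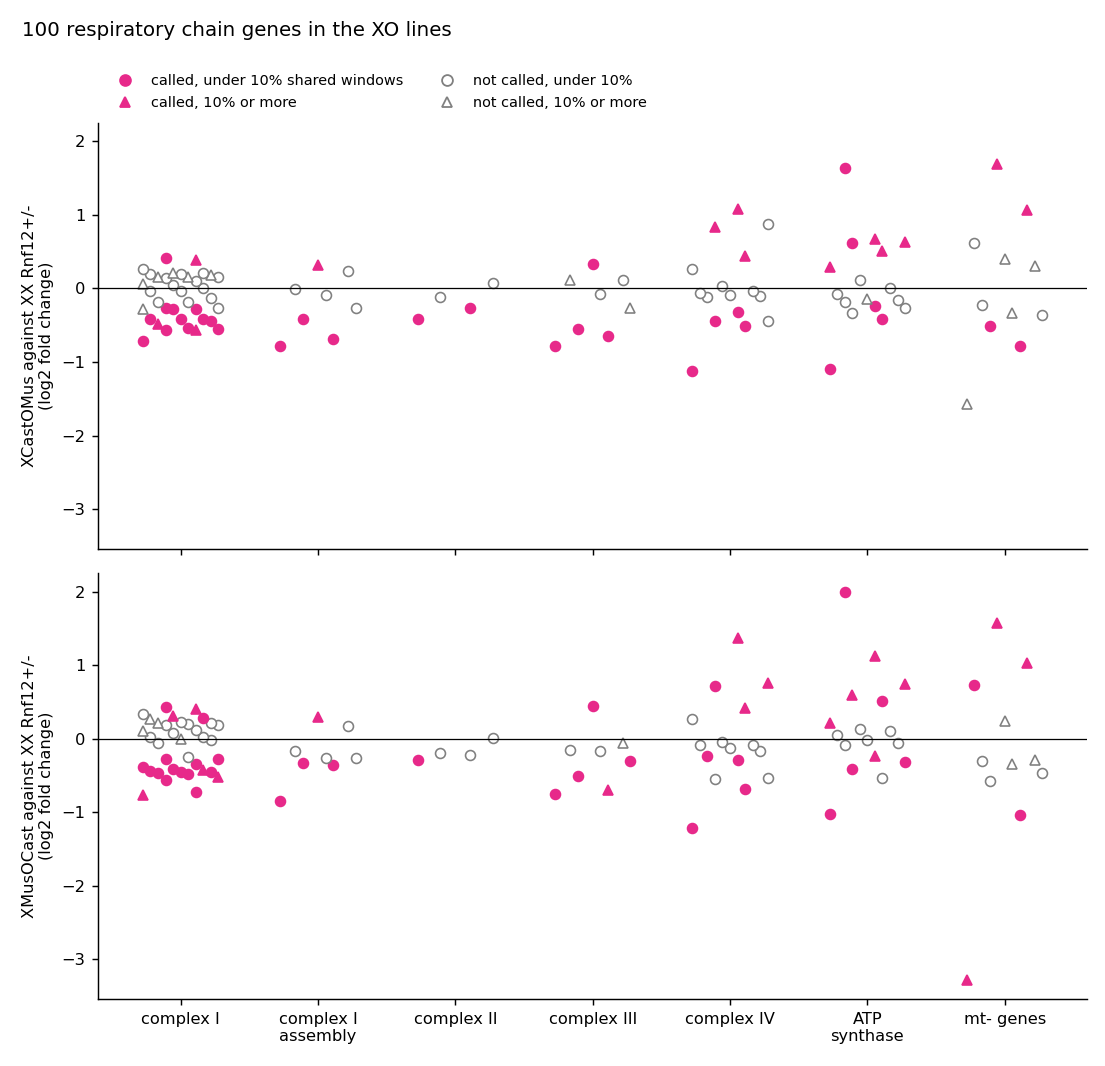
Log2 fold change of each of 100 genes in XCastOMus (top) and XMusOCast (bottom) against XX Rnf12+/-, by complex, per gene copy for the X-linked genes. Filled points were called at an adjusted p under 0.05, and triangles mark genes with at least 10% of their 50-base windows shared with another gene. Complex I has 2 called genes above 0 and 13 below it in XCastOMus, and 4 above and 15 below in XMusOCast.

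By summed level, every complex was below the reference in the 4 XO libraries. The median of the 4 was, as a share of the XX Rnf12+/- mean, 0.743 for complex IV, 0.753 for complex I, 0.76 for complex III, 0.78 for the assembly factors of complex I, 0.794 for complex II and 0.884 for ATP synthase. Each X-linked gene enters these sums with 1 copy in the XO lines, and no sum over other genes is set beside them.

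Complex I had 2 genes higher and 13 lower of 36 in XCastOMus and 4 higher and 15 lower in XMusOCast. Ndufc2, an accessory subunit, fell by 0.71 and 0.72 on the log2 scale, and Ndufs4, an accessory subunit of the arm that takes up NADH, fell by 0.42 and 0.56. Among the assembly factors, Ndufaf4 lay at 38.2 and 36.9 TPM in XX Rnf12+/- and at 20.3 and 20.3 TPM in XCastOMus and 17.9 and 19.8 TPM in XMusOCast (log2 -0.78 and -0.85, edgeR adjusted p = 3.51e-05 and 8.08e-06). The groups did not overlap.

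Complex II had 2 of 4 genes lower in XCastOMus and 1 of 4 in XMusOCast. Sdhd, a membrane anchor, fell by 0.27 and 0.29, and Sdhb, the iron-sulphur subunit, fell by 0.41 in XCastOMus and had a log2 difference of -0.22 in XMusOCast (adjusted p = 0.0734). Complex III had 1 gene higher and 3 lower of 8 in XCastOMus, and 1 higher and 4 lower in XMusOCast. Uqcrfs1, the Rieske iron-sulphur protein, lay at 387.1 and 403.4 TPM in the reference and at 214.3 and 211.3 TPM in XCastOMus and 205.4 and 217.8 TPM in XMusOCast (log2 -0.79 and -0.75). Uqcr10, a small accessory subunit, fell by 0.55 and 0.50.

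Among the nuclear genes, complex IV and ATP synthase held changes in both directions. Cox5a, a subunit of complex IV, lay at 511.2 and 561.3 TPM in XX Rnf12+/-, at 234.6 and 223.9 TPM in XCastOMus and at 212.1 and 205.7 TPM in XMusOCast (log2 -1.12 and -1.21, edgeR adjusted p = 1.04e-07 and 2.84e-08). Atp5g3, 1 of 3 genes for the same c subunit of ATP synthase, lay at 860.4 and 848.6 TPM, 346.9 and 398.3 TPM, and 377.5 and 382.1 TPM (log2 -1.09 and -1.02). The other 2 genes for the c subunit were higher. Atp5g1 lay at 69.3 and 55.1 TPM in the reference, 91.7 and 92.7 TPM in XCastOMus and 127.7 and 117.7 TPM in XMusOCast (log2 0.67 and 1.13). Atp5g2 lay at 96.0 and 121.2 TPM, 156.3 and 155.9 TPM, and 171.1 and 159.4 TPM (log2 0.63 and 0.75). Atp5g3 shares no window with another gene, Atp5g1 shares 11.1% and Atp5g2 38.35%.

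Cox5b, another subunit of complex IV, was higher by 1.08 and 1.37, and Cox7c, a further one, by 0.84 and 0.76. They share 11.94% and 22.11% of their windows. The nuclear gene with the largest rise was Atp5j2, a subunit of the membrane part of ATP synthase, with only 1.02% of windows shared. It lay at 76.4 and 78.4 TPM in XX Rnf12+/-, at 316.6 and 132.6 TPM in XCastOMus and at 277.0 and 279.5 TPM in XMusOCast (log2 1.64 and 1.99, edgeR adjusted p = 2.23e-05 and 1.59e-06). The clone with the lower value, XCastOMus replicate 2, was also the one whose other chromosome 5 genes deviated least from the reference, with a median log2 of 0.0155 against 0.1317, 0.1381 and 0.1702 in the other 3 XO libraries. The part of chromosome 5, where Atp5j2 lies, in this result was not tested.

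Among the mt- genes, mt-Nd2 fell by 0.79 and 1.04 (3221.1 and 3581.0 TPM in the reference, 1388.3 to 2020.2 TPM in the 4 XO libraries). mt-Co2 and mt-Co3 were higher by 1.69 and 1.57 and by 1.07 and 1.03, and mt-Nd3 fell by 3.28 in XMusOCast. All 3 are among the genes that share nearly all their windows with other genes, and the reads were single in the XO batch alone.

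XMusOCast and XCastOMus, which share a batch, differed from each other in 4 of 100 genes (8.99% of all genes called). The origin of the X and the near absence of Rlim in XMusOCast cannot be told apart in this contrast. Atp5g1 was higher in XMusOCast by 0.45, Atp5d, the delta subunit of ATP synthase, by 0.35 and Uqcrq, a small subunit of complex III, by 0.35, and Ndufaf1, an assembly factor of complex I, was lower by -0.35. No gene was called when either library of XMusOCast was left out. Without XCastOMus replicate 1, 3 genes were called higher, and without its replicate 2, 4 were called lower.

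The other genes of the pathway (66 genes from assembly factors to regulators, 63 past the filter) had 6 higher and 11 lower in XCastOMus and 14 higher and 15 lower in XMusOCast, beside 41.1% and 53.6% of all genes called. Cycs, the electron carrier cytochrome c, was higher by 1.19 and 1.49 and shares 26.15% of its windows with other genes. Cox20 and Cox14, assembly factors of complex IV, were lower, Cox20 by -0.93 and -1.04 with 84.76% of windows shared. Pnpt1, a mitochondrial RNA-processing enzyme that shares none, lay at 80.2 and 86.2 TPM in XX Rnf12+/-, 50.3 and 53.5 TPM in XCastOMus and 44.8 and 42.7 TPM in XMusOCast (log2 -0.57 and -0.78). Tfam, which packs and transcribes mitochondrial DNA, was lower in both lines by a smaller step, from 91.7 and 91.9 TPM to 72.4 and 69.2 TPM and to 73.1 and 70.0 TPM (log2 -0.27 and -0.21). None of the 63 was called in Del E or between XX Rnf12+/- and XX WT.

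The other 12 deletion lines, all of the batch of 20, gave 234 calls against XX Rnf12+/- among 1200 pairs of a gene and a line, 85 higher and 149 lower (21.8% of all pairs called). The mt- genes had 88 of the lower calls and none of the higher ones. Of these 88, mt-Atp6 had 12, mt-Nd3 11, and mt-Co2 and mt-Co3 9 each, genes that share nearly all their windows. The nuclear genes had 85 higher and 61 lower among 1068 pairs. Line and batch cannot be told apart here. The counts with libraries left out, given last, have no share of all genes beside them. Of the nuclear genes, Ndufaf4 was lower in all 12 lines, with 14.5 to 28.8 TPM in the 20 libraries against 38.2 and 36.9 TPM in the reference, 34.3 and 33.2 TPM in XX WT and 31.7 and 27.7 TPM in Del E. Its log2 difference was -0.44 to -1.39. Atp5g3 was lower in 8 lines (log2 -0.08 to -0.42) and Ndufc2 in 7 (-0.16 to -0.55). Ndufb8 was higher in 6 lines (log2 0.12 to 0.41), and Ndufa6 (0.13 to 0.62) and Ndufa7 (-0.03 to 0.57) in 5 each; all 3 are accessory subunits of complex I. The count was 84 without XX Rnf12+/- replicate 1 and 270 without its replicate 2, and 79 and 103 with clone 1 or clone 2 of every paired line left out.

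Within the batch, each line was set against the mean of the other 11. There were 66 calls, 40 higher and 26 lower, among the 1200 pairs (10.5% of all pairs called). With clone 1 or clone 2 of every paired line left out there were 11 and 24 (2.8% and 3.52% of all pairs called), and 3 of the 66 had a log2 difference beyond 1. Del B, Del AB, Del C-G, Del H and Del K had 0 calls each, with 6, 5, 5, 4 and 9 genes at an unadjusted p under 0.05 and 0.35%, 2.67%, 0.598%, 4.9% and 1.03% of all genes called. Del F had 2 higher (5.34% of all genes called), Del A 1 higher and 2 lower (7.31%), Del I 3 higher and 2 lower (9.66%), Del I-TEL 2 higher and 6 lower (17.0%) and Del J 6 higher and 4 lower (21.1%).

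**Figure D4:**
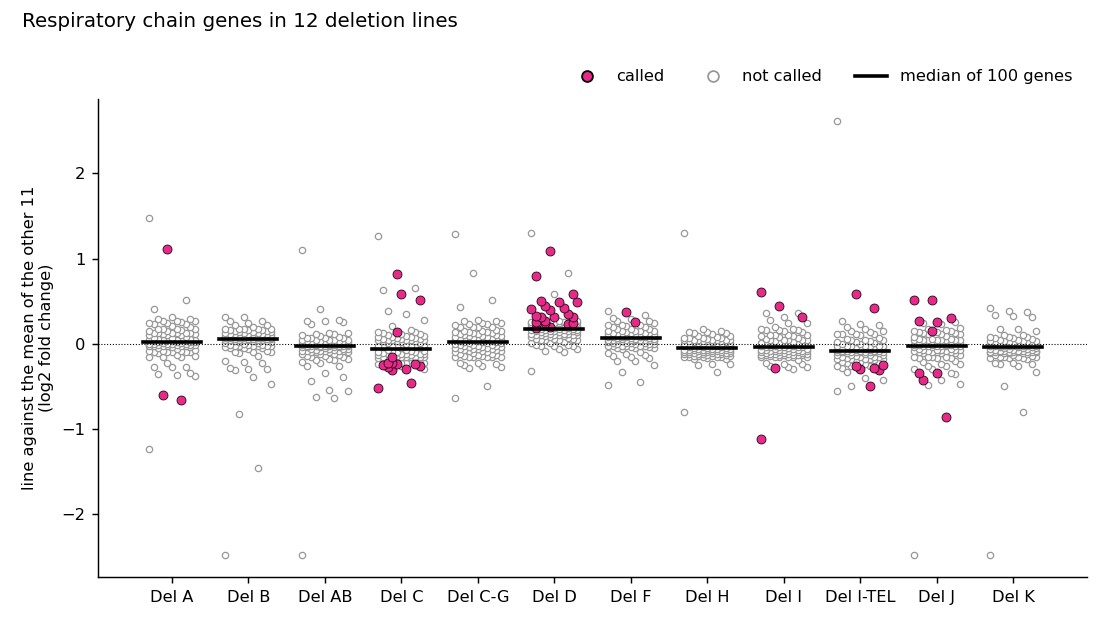
Log2 fold change of 100 genes in each of the 12 deletion lines of the batch of 20 against the mean of the other 11 lines, with filled points for called genes and black bars for the median of the 100 genes. The median is 0.18 in Del D, where 22 genes are called above 0, and between -0.08 and 0.08 in the other lines.

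Del D stood above the others in most genes of the chain, but not in every complex. In it 22 genes were higher and 0 lower (14.5% of all genes called, 7.3% higher), 90 of 100 had a log2 difference above 0, and the median was 0.18 against 0.01 for all genes. ATP synthase had 7 of 17 higher, complex I 5 of 36, complex III 3 of 8, complex IV 4 of 16 and the mt- genes 3 of 11, while complex II and the assembly factors had 0. By summed level, complex II lay at 898 and 870 TPM in Del D, against 877 to 1010 TPM in the rest of the batch. The mt- genes summed to 16650 and 19451 TPM in Del D, inside the batch range of 12327 to 22572 TPM. mt-Nd6 lay at 252.8 and 390.2 TPM in Del D and at 95.6 to 259.6 TPM in the other 18 libraries of the batch (log2 1.09, edgeR adjusted p = 0.00306), so the groups overlapped. Uqcr11, a small subunit of complex III, lay at 556.7 and 493.7 TPM against 322.6 to 444.2 TPM (log2 0.50). Ndufb10, an accessory subunit of complex I, lay at 367.5 and 332.8 TPM against 202.7 to 303.5 TPM (log2 0.49). Atp5k, a membrane subunit of ATP synthase, lay at 500.3 and 396.0 TPM against 286.5 to 377.3 TPM (log2 0.44). For these last 3 both clones were above all other libraries. With a single clone of each paired line the count in Del D was 0 and 2. The 8 fibroblast markers summed to 266 and 272 TPM in Del D, above the batch median of 169 TPM and below its highest value of 302 TPM, and their part in the result was not tested.

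Del C had 4 genes higher and 12 lower (41.6% of all genes called). Cox6b2, the testis form of subunit 6b, lay at 165.2 and 188.1 TPM against 63.0 to 143.5 TPM in the other 18 libraries (log2 0.82, edgeR adjusted p = 0.00776). Uqcrq lay at 149.7 and 161.7 TPM against 178.6 to 272.7 TPM (log2 -0.46), and Atp5g1 at 37.7 and 38.9 TPM against 42.0 to 74.2 TPM (log2 -0.52). mt-Cytb (log2 0.58) and mt-Nd2 (0.51) were higher. With a single clone of each paired line the count was 3 and 9.

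Of the other pathway genes, 8 were higher and 21 lower of 63 in Del C, beside the 41.6% of all genes. Among its regulators, Nrf1, a transcription factor of nuclear respiratory chain genes, lay at 18.2 and 18.2 TPM against 24.4 to 30.4 TPM in the other 18 libraries of the batch (log2 -0.58, edgeR adjusted p = 4.09e-06). Yy1, another such factor, lay at 136.9 and 130.3 TPM against 64.4 to 105.0 TPM (log2 0.71), and Gabpa and Gabpb1, the DNA-binding and partner subunits of the ETS factor, were higher by 0.35 and 0.46. Both Del C libraries lay outside the range of the other lines for Nrf1 and Yy1. Of the 14 genes for transcription of mitochondrial DNA and handling of its RNA, 1 was higher and 7 were lower. They include Twnk, the mitochondrial helicase (29.9 and 27.5 TPM, log2 -0.51), Tefm, an elongation factor (26.6 and 33.9 TPM, -0.70), and Polrmt, the mitochondrial RNA polymerase (37.5 and 39.7 TPM, -0.28).

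In Del D, 5 of the 63 pathway genes were higher and 2 lower, beside 14.5% of all genes called. Cox17, a copper carrier for complex IV, was higher by 0.78, and Uqcc3 and Uqcc2, assembly factors of complex III, by 0.48 and 0.43. Twnk was higher too (54.0 and 48.9 TPM, log2 0.47). In Del A 0 were higher and 6 lower, beside 7.31% of all genes, among them Lrpprc, which stabilises mitochondrial messenger RNA (log2 -0.43), and Yy1 (64.4 TPM, log2 -0.42).

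No gene was called in more than 3 of the 12 lines. Ndufb10, Ndufaf5, Uqcr10, Uqcrq and Cox7a1 reached 3. Uqcrq and Uqcr10, 2 subunits of complex III, and Ndufb10 were higher in Del D and lower in Del C and Del I-TEL. Cox7a1 was higher in Del A (121.3 TPM, log2 1.11) and Del D (85.1 and 84.6 TPM, 0.59) and lower in Del I (19.1 and 40.8 TPM, -1.12), beside 40.8 to 75.3 TPM in the rest of the batch. Ndufaf4, low in the whole batch, was lowest in Del A (14.5 TPM, log2 -0.66) and highest in Del F (27.0 and 28.8 TPM, 0.37). Atp5s, a factor attached to ATP synthase, was lower in Del J (log2 -0.86). Ndufa7 was lower in both lines from the second Rnf12+/- line, Del I-TEL (240.6 and 215.2 TPM, log2 -0.31, edgeR adjusted p = 0.0111) and Del J (216.8 and 218.5 TPM, log2 -0.34, edgeR adjusted p = 0.00578). The rest of the batch lay at 236.1 to 326.6 TPM, so that Del I-TEL replicate 1 overlapped it and the other 3 did not.

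Of the genes on a chromosome that stood above the other libraries as a whole, 3 of 3 were called higher in Del J, 2 of 3 in Del I-TEL, 3 of 6 in Del I and 0 of 3 in Del F, where replicate 2 alone had the raised chromosome. Of all genes, 21.1%, 17.0%, 9.66% and 5.34% were called in these lines in either direction. No such share is given for all genes of the raised chromosomes, so the counts do not set the chain apart from them. On chromosome 8, Cox4i1 lay at 1568.7 and 1434.6 TPM in Del I-TEL, 1399.4 and 1399.3 TPM in Del J and 1180.6 TPM in Del F replicate 2, against 815.1 to 1017.8 TPM in the other 15 libraries of the batch. Ndufb7 and Ndufa13, accessory subunits of complex I, are on the same chromosome. Ndufb7 lay at 70.5 to 78.4 TPM in those 5 libraries against 40.9 to 60.4 TPM, and Ndufa13 at 204.6 to 270.7 TPM against 163.8 to 217.2 TPM, so that the ranges of Ndufa13 overlapped. Against the other lines, Cox4i1 was higher by 0.58 in Del I-TEL and 0.52 in Del J, and Ndufb7 by 0.42 and 0.52. Ndufa13 was higher by 0.26 in Del J and had a log2 difference of 0.10 in Del I-TEL (edgeR adjusted p = 0.471). In Del F the log2 differences were 0.11 for Cox4i1, 0.29 for Ndufb7 and 0.25 for Ndufa13 (edgeR adjusted p = 0.438, 0.143 and 0.103). The other genes of chromosome 8 had a median log2 deviation of 0.3041 to 0.3783 in these libraries.

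**Figure D5:**
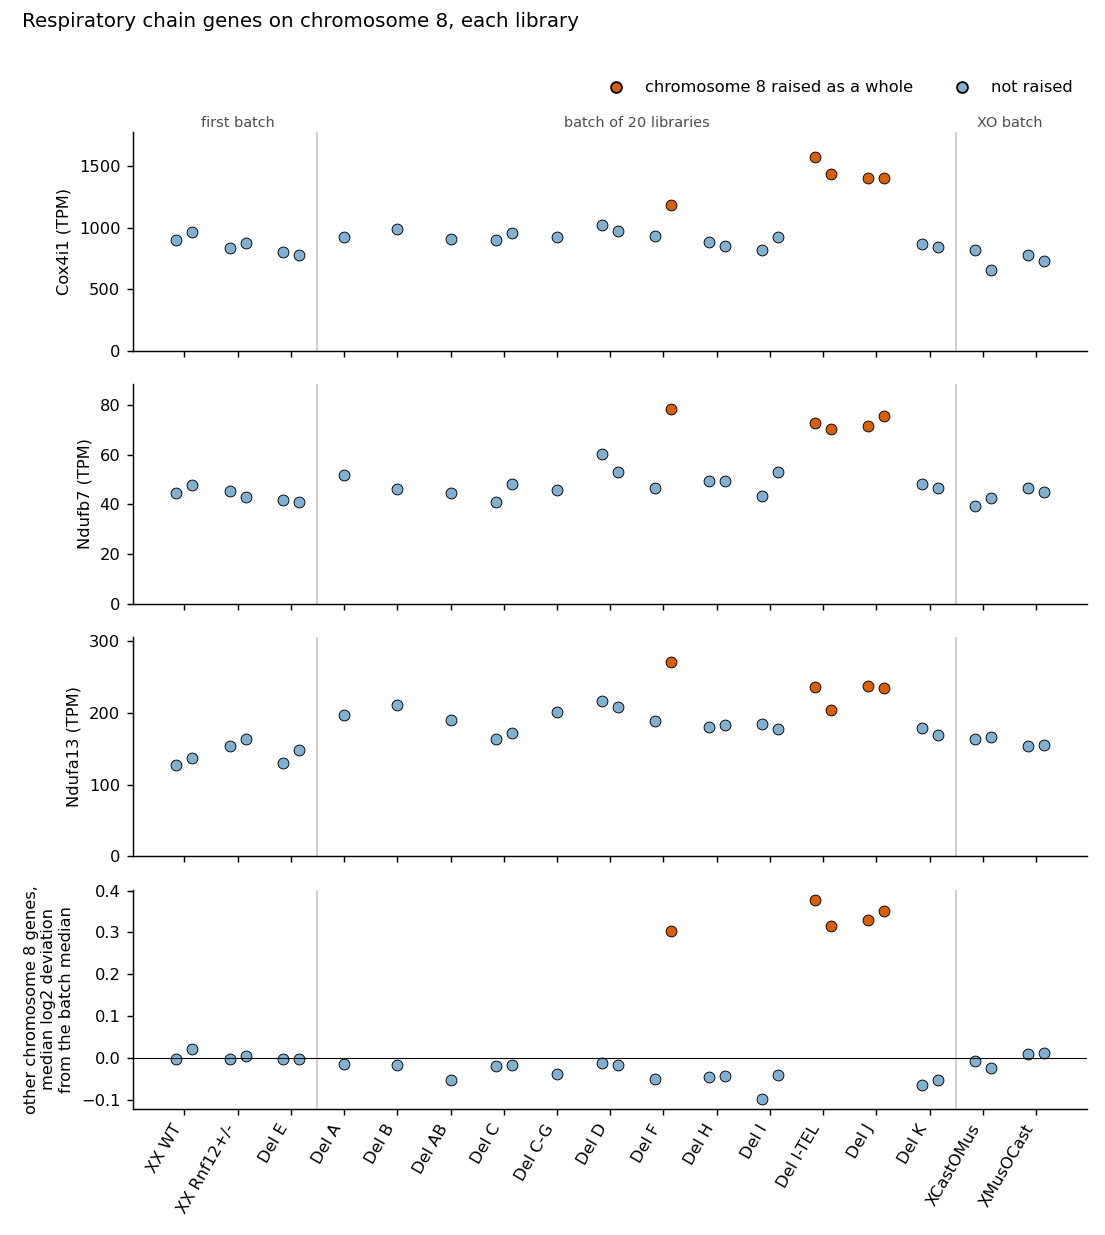
Level (TPM, axes from 0) of Cox4i1, Ndufb7 and Ndufa13 in each of the 30 libraries by line, with the median log2 deviation of the other chromosome 8 genes from the batch median below. Orange points are the 5 libraries in which the whole chromosome was raised, with Cox4i1 at 1180.6 to 1568.7 TPM against at most 1017.8 TPM elsewhere.

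In Del I, whose replicate 1 had chromosomes 1 and 14 raised, 3 of the 6 genes on these chromosomes were called higher. They were Cox5b (168.2 TPM in replicate 1 and 97.4 TPM in replicate 2, log2 0.61), Ndufs1, the largest subunit of complex I (log2 0.44), and Ndufa10 (log2 0.31). Without the genes on chromosomes raised in the line concerned, 58 of the 66 calls were left. With the 6 libraries left out of the fit there were 41 calls, 19 of them in Del D.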

How the data were processed

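RNA was sequenced in 30 libraries of 17 lines (TruSeq stranded, poly(A) selected). Per the labels and the study's methods, the authors used Trim Galore 0.6.7 for trimming, HISAT2 2.2.1 for the alignment (mm10, parental differences masked), SNPsplit for the alleles and SAMtools 1.10. The deposited values are raw counts per gene, of all reads, of Mus reads and of Cast reads. The methods name featureCounts as the counter, and the submitters' processing notes name HTSeq 0.12.4. Of 55421 genes, 55240 matched GENCODE M21, and the other 181 held at most 0.00401% of a library's counts.

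From these counts, TPM was computed here with annotated exon lengths. Differences were tested with edgeR 4.0.16 (quasi-likelihood, R 4.3.3) on all 30 libraries with a term per line, TMM factors from autosomal genes and the copy number of X-linked genes in the offset; XX Rnf12+/- and XX WT were fitted on their 4 libraries. Called means a Benjamini-Hochberg adjusted p under 0.05 over the 11703 genes with a mean over 5 TPM in XX Rnf12+/-. Fitted fold changes and TPM ratios differ slightly because their scaling differs. Lines with 1 clone were taken to vary like the others. Cast counts were tested in the same way over the batch of 20 (genes with a mean of at least 5), and by an exact permutation test. Intervals of fold changes are 1.96 standard errors. Shared windows are the 50-base stretches of a gene's transcripts that also occur in a transcript of another gene. A chromosome counts as raised where its other genes had a median log2 deviation of at least 0.2 from the batch. In a simulation of XCastOMus against XX Rnf12+/- on 11703 genes, 96 of 100 genes with a simulated log2 change of 1 passed, as did 100 of 100 with a change of 2 and 11 unchanged genes. The simulated counts had the same spread set for every gene and no effect of batch or read type. These shares are therefore not the sensitivity of the real comparison. Depth, stated in the report, limits precision, and intervals of read shares cover counting error only. The labels give the 2 libraries of a line only a replicate number, and the study describes separate clones for most deletion lines. P-values rest on the spread between libraries of the same line, estimated over all lines in the fit.

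The genes, the lists and the tests were chosen with earlier results of these data known. Named with values are the X-linked and mt- genes, the largest called changes shared by both libraries, the genes called in most lines, the tissue isoforms and complex II. Alternatives were DESeq2 1.42.0, RLE factors, other level filters, the groups in the fit, a stricter fold rule, a replicate block, XX WT as reference and each library left out. The counts among genes with under 10% shared windows, without raised chromosomes and without the 6 libraries were added after the data had been seen.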

Additional observations from a re-analysis of the deposited data

Results flagged for a closer look

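The 2 XO lines, set against each other within their batch, differed in 4 of the respiratory chain genes tested, beside 8.99% of all genes called. The count of 4 therefore does not set the chain apart from genes at large. Atp5g1 was higher in XMusOCast than in XCastOMus by 0.45 on the log2 scale (127.7 and 117.7 TPM against 91.7 and 92.7 TPM, edgeR adjusted p = 0.0443). Atp5d was higher by 0.35 (362.8 and 372.7 TPM against 305.8 and 289.7 TPM, edgeR adjusted p = 0.00822), and Uqcrq by 0.35 (149.8 and 159.2 TPM against 131.6 and 118.6 TPM, edgeR adjusted p = 0.0207). Ndufaf1 was lower, with a log2 difference of -0.35 (34.9 and 34.8 TPM against 45.7 and 45.9 TPM, edgeR adjusted p = 0.0346). In each of the 4, both libraries of a line lay apart from both of the other, and none was called with only the 2 XO lines in the fit.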

How the results depend on the processing

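Counts of called respiratory chain genes kept within 1.5 times of the reported count in 87 of the settings run, and went beyond it in 27. In 1 more setting, given below for Ndufb11, a sign changed. Where no share of all genes stands beside a count from another setting, here or above, that count does not set the chain apart from genes at large. Asking for a log2 change beyond 1 left 6 genes in XCastOMus, 9 in XMusOCast, 0 between the XO lines, 70 pairs in the 12 lines against XX Rnf12+/-, 3 pairs within the batch, 0 in Del C and 1 in Del D. With only the 2 groups in the fit, XCastOMus had 14 and the contrast of the XO lines 0. Genes with under 10% shared windows gave 34 in XMusOCast, by construction from fewer genes. In Del E, DESeq2 and the fit with no level filter gave 1 each, and Del D without the filter gave 11. The 41 pairs without the 6 libraries of raised chromosomes come from 10 lines.

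Leaving out libraries gave 0 to 3 genes in Del E, 0 to 4 between the XO lines, 79 to 270 pairs against XX Rnf12+/-, 11 to 24 pairs within the batch, 3 to 9 in Del C and 0 to 2 in Del D, where fewer samples also lower the count of all genes called. With the replicate number as a block, XX Rnf12+/- against XX WT had 8 calls in place of 0 (6 higher and 2 lower, with 10.0% of all genes called). The labels do not say that a number marks a shared batch. The deviations of same-numbered libraries correlated at 0.771 in this contrast, the highest of 78 pairs of groups (lowest -0.418, 29 above 0.1), and the fibroblast markers summed to 279 and 113 TPM in XX WT and 334 and 127 TPM in XX Rnf12+/-. The block moved no other count by over 1.5 times (46 in XCastOMus, 52 in XMusOCast, 4 between them, 0 in Del E, 240 and 75 pairs, 17 in Del C, 23 in Del D, 0 X-linked). For values close to 0 the sign changed. Cox7b per copy was 0.01 with a filter of 1 TPM, 0.02 with none, and from -0.03 to 0 with a Del H library or replicate 2 of every line left out, and the Cast level of Ndufb11 was 0 without Del AB and 0.06 without Del B. With XX WT as the reference, 51 genes were called in XCastOMus and 48 in XMusOCast. Of the single genes named, 1126 values kept their side of the threshold, 317 lost it and 4 changed sign. Depth limits the allelic test to Ndufb11, and the cause of the changes named here was not tested.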
